A study of Mus musculus with 2 samples.

Results

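Intermediate filaments are the rope-like part of the cytoskeleton, and 7 of their genes were examined in single neural stem/progenitor cells (NSPCs): *Vim*, *Nes*, *Gfap* and *Synm* for filaments of the cytoplasm, and *Lmna*, *Lmnb1* and *Lmnb2* for the nuclear lamina. The genes were taken by name from a count table of 15046 genes. The cells were cultured NSPCs from the subventricular zone of adult C57/Bl6 male mice aged 6 to 8 weeks. They had been passaged as neurospheres at least 5 times, were kept proliferating with 20 ng/ml EGF and 20 ng/ml FGF-2, and all belonged to 1 stable line that carries PLIN2-GFP from a retrovirus. PLIN2 is a coat protein of lipid droplets, and the study used the GFP signal as a readout of the lipid droplets of a cell. The fusion gene is driven by the CAG promoter, so the signal also depends on how strongly a cell expresses it. The paper reports that *Plin2* mRNA was higher in cells with a high signal. Single cells from the lowest 25% and the highest 25% of the GFP signal, the low and high PLIN2-GFP NSPCs, went by flow sorting into 384-well plates for SORT-seq, which counts each RNA molecule once at its 3′ end by a unique molecular identifier (UMI).

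Vimentin, nestin, glial fibrillary acidic protein and synemin are the cytoplasmic filament proteins of neural stem cells and astrocytes. Vimentin polymerises by itself, whereas nestin and synemin need a partner such as vimentin to enter a filament. Vimentin also forms cages around lipid droplets in fat cells, and nestin is a classical marker of neural stem cells. The lamins line the inner nuclear membrane. A-type lamins come from *Lmna* and typify differentiated and stiff tissues, and B-type lamins come from *Lmnb1* and *Lmnb2*. Kinases of mitosis phosphorylate vimentin, nestin and the lamins, so that the networks come apart when a cell divides.

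The cells came from 2 plates. Plate 1 held 95 low and 84 high, and plate 2 held 72 low and 53 high. A cell held between 1170 and 34630 UMIs. The median cell was deeper in the high category, with 11709 against 7856 UMIs on plate 1 and 14729 against 11955 on plate 2, so levels are given as CPM, the UMIs of a gene scaled to a common library size, and shares of cells also after each cell was thinned to 5000 UMIs. A share of cells is the percentage in which at least 1 UMI was found. Low cells lay in 8 rows of wells and high cells in the other 8, with 0 rows shared, so the position on the plate and the category cannot be told apart. Of 11 listed NSPC markers, 10 were in the table with at least 10 counts each, led by *Fabp7* with 10660 counts, whereas *Prom1* was not in the table. The listed microglial markers were not in the table, and the neuronal markers *Dcx*, *Tubb3* and *Stmn2* were not in it either. Other markers of these lineages were present. The neuronal, astrocyte and oligodendrocyte lineage lists had 4 of 7, 5 of 6 and 2 of 7 genes in the table. They were led by *Map2*, *Aldoc* and *Olig1*, which had a UMI in 91.45%, 95.39% and 100% of cells.

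*Vim*, on chromosome 2 of GRCm38 from 13573927 to 13582826 on the plus strand, was found in 100% of the cells, with 9832 counts in all. *Nes*, on chromosome 3 from 87971078 to 87980451 on the plus strand, was found in 71.1% of cells, with 941 counts. The lamin genes were sparse. *Lmnb2* (chromosome 10, 80901203 to 80918245, minus strand) was found in 76 cells (25%), *Lmnb1* in 66 (21.7%) and *Lmna* (chromosome 3, 88480147 to 88509956, minus strand) in 41 (13.5%). *Synm* (chromosome 7, 67730160 to 67759742, minus strand) had 6 counts in 5 cells, 1.65% of cells. *Gfap* (chromosome 11, 102887336 to 102900912, minus strand), the filament gene of mature astrocytes, reached a whole UMI in 0 cells, which allows a share of up to 0.987%, and its 1.5 counts were fractions of a UMI in 3 cells. These shares limit the cells in which a UMI was found and not the cells that express the gene. No cell type that should lack these genes was in the data, so the share that free RNA gives was not measured. *Gfap* and *Synm* fell under the filter on low counts in each comparison, and *Lmna* passed it only between the categories. Without that filter *Gfap* and *Synm* had adjusted p of 0.850 to 1.00 in edgeR's quasi-likelihood test.

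Of the 7 members, 6 had a promoter entry in the RefSeq table of GRCm38.p6. The upstream windows of *Nes* and *Lmnb2*, a cytoplasmic and a nuclear filament gene that were both followed through the cell cycle, are shown 5′ to 3′ with the GC box GGGCGG, on either strand, in capitals. The *Nes* window is chr3:87970843-87971077 on the plus strand, and the *Lmnb2* window is chr10:80918246-80918495 on the minus strand. Both end before the transcribed region annotated in GENCODE M21.
Nes: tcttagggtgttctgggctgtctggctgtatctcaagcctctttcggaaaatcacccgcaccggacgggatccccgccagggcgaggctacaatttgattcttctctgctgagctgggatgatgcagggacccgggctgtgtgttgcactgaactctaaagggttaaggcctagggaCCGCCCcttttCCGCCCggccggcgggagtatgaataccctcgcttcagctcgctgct
Lmnb2: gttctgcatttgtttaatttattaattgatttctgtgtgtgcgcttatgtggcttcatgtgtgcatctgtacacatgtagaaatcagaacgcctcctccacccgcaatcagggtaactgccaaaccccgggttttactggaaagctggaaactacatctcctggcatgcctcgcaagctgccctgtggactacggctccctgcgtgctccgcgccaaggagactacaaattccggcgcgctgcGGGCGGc
*Nes* held 2 GC boxes, both on the minus strand, the nearest beginning 62 bases before the RefSeq start, and *Lmnb2* held 1 on the plus strand, beginning 7 bases before it. A GC box was in 32.7% of the 32851 upstream windows of 250 bases. The CCAAT box (33.9% of windows) and the TATA box TATAAA (12.4%) were in neither window, nor was the cell cycle homology region TTTGAA (16%) or the E2F sites TTTCCCGC (0.895%), TTTGGCGC (0.417%) and TTTCGCGC (0.256%), all searched on both strands. *Lmna* held 1 GC box on the minus strand, beginning 52 bases before its RefSeq start, and *Vim*, *Gfap* and *Synm* held 0. The *Lmna* window, chr3:88503387-88503602, lies inside the gene as placed by GENCODE M21, so its start is not the first of the gene. *Lmna* and *Lmnb2* have 2 promoter entries each, of which the most upstream was searched. The *Vim* window held 1 TATA box beginning 32 bases before the start and 2 CCAAT boxes, 1 on each strand. A match of letters is a description and not a binding site, and the data hold no measurement at these promoters.

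To ask whether the filament genes differ with the PLIN2-GFP signal, the categories were compared over 4 sums of counts, each for 1 plate and category. Of the 5 members tested, *Vim* alone passed the test, at a lower level in high cells. Its level in low PLIN2-GFP NSPCs was 3052 CPM on plate 1 and 3252 CPM on plate 2. In high PLIN2-GFP NSPCs it was 2482 CPM on plate 1 and 2935 CPM on plate 2. Both high sums lay below both low sums, and the plates differed among the high sums by more than among the low sums. *Vim* fell by 0.22 on the log2 scale (SE 0.06, 14.3% lower in high cells), with an adjusted p of 0.0405 in edgeR's quasi-likelihood test with the plate as a block. A gene was called at an adjusted p under 0.1, by which 1.26% of the 8348 genes tested were lower and 0.886% were higher in high PLIN2-GFP NSPCs. With library size as the only scaling, 1.02% were lower and 1.83% higher, and *Vim* had an adjusted p of 0.0998. Without the block the adjusted p of *Vim* was 0.996. With the block, DESeq2 gave 0.371 for *Vim*. The summed neuronal markers, 4 of 7 in the table and led by *Map2*, were at 494 and 386 CPM in high and 539 and 543 CPM in low cells. The summed NSPC markers were at 5714 and 5477 CPM in high and 5210 and 5232 CPM in low cells. Among them *Slc1a3* alone was called, higher in high cells (log2 0.24, adjusted p = 0.0856 in edgeR). The others, such as *Fabp7* (0.870), *Hes1* (0.549) and *Egfr* (0.857), were not called. The summed astrocyte markers, led by *Aldoc* with 2236 counts, were higher in high cells on both plates, at 918 against 810 and 790 against 536 CPM. *Aldoc* itself was called higher (log2 0.38, adjusted p = 0.00764 in edgeR), while *Slc1a2* (0.928) and *S100b* (0.789) were not called. The ependymal markers were at 23.3 and 18 CPM in high against 18.4 and 13.4 CPM in low cells. They were led by *Foxj1*, with 47 counts in all cells and no call (adjusted p = 0.887 in edgeR). The part of these markers in the difference of *Vim* was not tested. The block leaves 1 residual degree of freedom, and an exact two-sided permutation test of 2 against 2 sums cannot go below 0.333.

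The difference in *Vim* had the same sign in each phase of the cell cycle. With the cells divided by plate and phase, the high sum of *Vim* was below the low sum in 6 of 6 pairs. The pairs ranged from −0.38 for cells in S phase on plate 1 to −0.01 for cells in G1 on plate 2 on the log2 scale. With phase as a term over 12 sums, the difference between categories was −0.20 with an adjusted p of 0.0454 in edgeR. At equal depth it was smaller. Among cells thinned to 5000 UMIs, which left out 45 cells, 23 of them low cells of plate 1, *Vim* differed by −0.16 with an adjusted p of 0.491. A thinned cell held on average 14.3 ± 6.24 *Vim* UMIs (SD over 72 cells) in low and 12.6 ± 6.72 (73 cells) in high PLIN2-GFP NSPCs of plate 1. On plate 2 the average was 16.1 ± 7.37 in 64 low cells and 15.5 ± 5.4 in 50 high cells. The cells of the 2 categories overlapped over nearly their whole range on both plates. When 1 of the 4 sums was left out, which also removed the block, the difference ranged from −0.34 without the high sum of plate 2 to −0.10 without the high sum of plate 1, with adjusted p from 0.987 to 1.00.

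**Figure D1:**
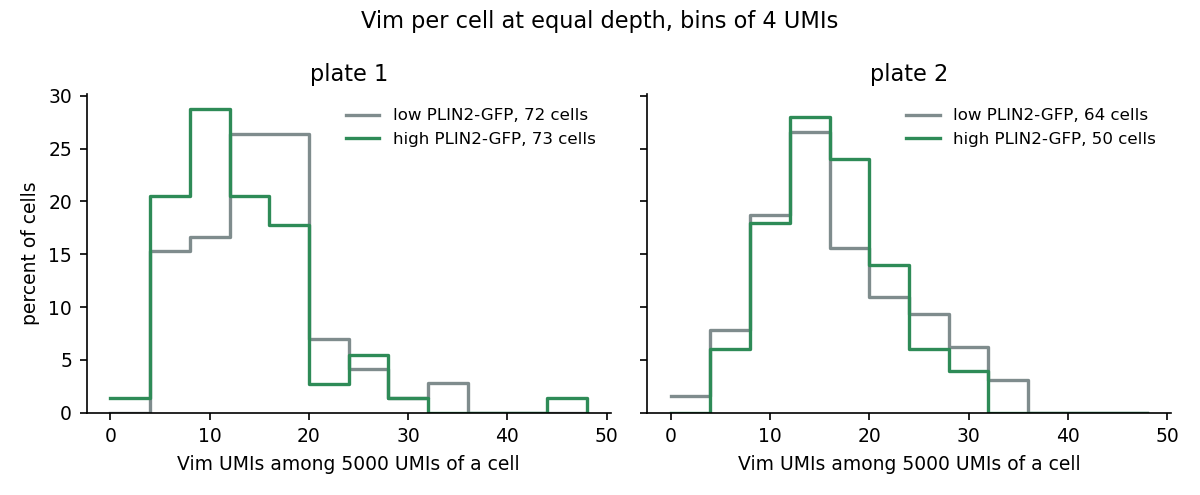
Percent of cells (y axis) by the number of *Vim* UMIs among 5000 UMIs drawn from each cell (x axis, bins of 4 UMIs), for low and high PLIN2-GFP NSPCs of each plate. On plate 1 the high cells lay lower, with an average of 12.6 against 14.3 UMIs, and on plate 2 the 2 curves lay closer, with 15.5 against 16.1.

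Cells of a category varied in *Vim* by more than counting alone gives. The variance of the thinned counts divided by their mean was between 1.88 and 3.58 in the 4 groups of plate and category, where counting alone gives 1. The values per cell ranged from 589 to 8043 CPM in high cells of plate 1 and from 631 to 7290 CPM in low cells of that plate. On plate 2 they ranged from 1084 to 6278 CPM in high and from 884 to 6809 CPM in low cells. *Vim* and *Nes* were nearly unrelated from cell to cell. Spearman's rho between their thinned counts was 0.11 and 0.07 in low and 0.14 and 0.08 in high cells of plates 1 and 2, over 50 to 73 cells a group, a description of sparse counts.

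*Nes* did not pass the test between the categories. Its level on plates 1 and 2 was 295.96 and 234.35 CPM in low and 309.23 and 263.69 CPM in high cells. The categories overlapped, and plate 1 was higher in both. The log2 fold change was 0.11 (SE 0.13, adjusted p = 0.846 in edgeR), and it was −0.25 among thinned cells (adjusted p = 0.710). A *Nes* UMI was found in 72.6% and 70.8% of low and in 69% and 71.7% of high cells, and at 5000 UMIs per cell in 72.2% and 59.4% of low and 57.5% and 64% of high cells.

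The lamins did not pass the test between the categories either. *Lmnb2* had 28.9 and 27.9 CPM in low and 30.1 and 32.2 CPM in high PLIN2-GFP NSPCs, from 22 to 31 counts a sum. *Lmnb1* had 39.5 and 15.8 CPM in low and 30.1 and 27 CPM in high cells, so the low sums enclosed the high ones. *Lmna* had 15.8 CPM in both low sums and 15.6 and 11.6 CPM in the high sums, from 9 to 16 counts a sum. The log2 fold changes were 0.13 (SE 0.31) for *Lmnb2*, 0.05 (SE 0.32) for *Lmnb1* and −0.21 (SE 0.43) for *Lmna*, with adjusted p of 0.951, 0.983 and 0.940 in edgeR. Standard errors of this size do not exclude sizeable differences in either direction.

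The cell cycle was the second axis along which the members were compared. The authors assigned each cell to G1, S or G2M from scores over cycle genes of the same cells. In the lists that Seurat supplies for such scores, with 43 S and 54 G2M genes, 0 of the 7 members were found. A member that varies with the listed genes is still not independent of the phase call. The 6 sums of plate and phase are shared by the 3 comparisons, so these are not independent of each other. Between S and G1, 1 of 4 tested members was called, *Nes*, which was higher. Between G2M and G1, 2 of 4 were called, with *Lmnb1* higher and *Vim* lower, and between G2M and S only *Lmnb1* was called, which was higher. Of 7650 genes tested, 7.56% were higher and 5.19% lower in S than in G1, 9.01% higher and 7.4% lower in G2M than in G1, and 2.76% higher and 2.09% lower in G2M than in S. With library size as the only scaling, 8.92% were higher and 3.16% lower in S than in G1.

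**Figure D2:**
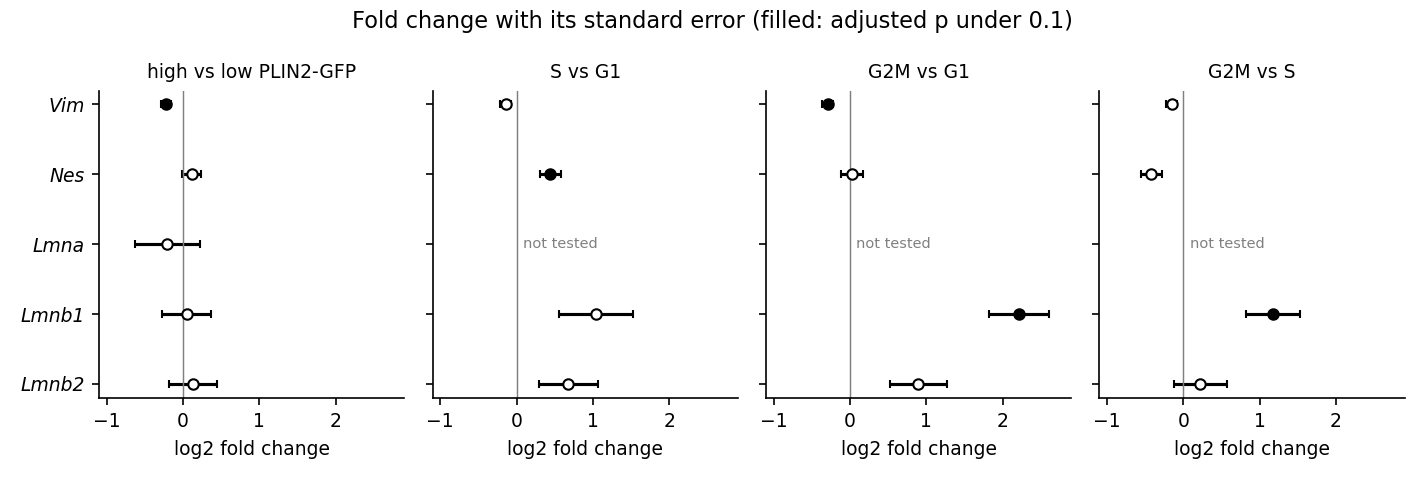
Log2 fold change (x axis) of the 5 tested members with its standard error as a bar, for high against low PLIN2-GFP NSPCs and for the 3 pairs of phases. Filled points have an adjusted p under 0.1, namely *Vim* in high against low (−0.22) and in G2M against G1 (−0.29), *Nes* in S against G1 (0.44), and *Lmnb1* in G2M against G1 (2.21) and against S (1.17).

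*Lmnb1*, the B-type lamin whose loss is known to accompany senescence, had the largest difference of the tested members. It was at 12.4 and 10.2 CPM in G1, at 28.6 and 17.2 CPM in S and at 66.3 and 37.3 CPM in G2M on plates 1 and 2. Every G2M sum was above every S sum, and every S sum above every G1 sum. The level was 4.63-fold higher in G2M than in G1 (log2 2.21, SE 0.39, adjusted p = 0.000179 in edgeR). *Lmnb1* was called in that comparison without the block (adjusted p = 0.00402), by DESeq2 (0.0744) and without any 1 of the 6 sums (0.0000801 to 0.0571). It rests on few molecules, since the sums held 9 and 5 counts in G1, 13 and 10 in S and 39 and 19 in G2M. A UMI was found in 9.88% and 9.8% of G1 cells, with 95% exact intervals of 4.36 to 18.5% and 3.26 to 21.4%, and in 43.9% (30.7 to 57.6%) and 34.2% (19.6 to 51.4%) of G2M cells. After thinning the shares were 4.55% and 2.22% in G1 and 31.1% and 8.82% in G2M, where the intervals of plate 2 overlapped (0.056 to 11.8% and 1.86 to 23.7%). *Lmnb1* was 2.26-fold higher in G2M than in S (log2 1.17, SE 0.36, adjusted p = 0.0688 in edgeR). That call was lost without the block (0.223), in limma voom (0.246) and in DESeq2 (1.00), and also without G2M of plate 1 (0.520), G2M of plate 2 (0.187), S of plate 1 (0.346) or S of plate 2 (0.370). Against G1, *Lmnb1* in S had a log2 fold change of 1.04 (SE 0.48, adjusted p = 0.197).

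*Lmnb2* had the same order of means without passing the test. It was at 21.9 and 18.4 CPM in G1, 35.2 and 30.9 CPM in S and 35.7 and 41.3 CPM in G2M. Both G1 sums lay below the other 4 sums, while G2M against S had a log2 fold change of 0.22 (adjusted p = 0.842 in edgeR). The log2 fold change was 0.90 (SE 0.37, adjusted p = 0.120 in edgeR) for G2M against G1, and 0.68 (SE 0.39, adjusted p = 0.315) for S against G1. Among cells with under 20% mitochondrial counts, a restriction chosen after seeing the data, G2M against G1 had an adjusted p of 0.0960. *Lmna* had 12 and 14 counts in G1, 8 and 4 in G2M and 7 and 3 in S, or 16.5 and 28.7, 13.6 and 7.86, and 15.4 and 5.15 CPM. Its 2 G1 sums were the highest. *Lmna* was under the filter on low counts between the phases, and without the filter it had log2 fold changes of −1.14 in S against G1 (adjusted p = 0.270 in edgeR) and −0.96 in G2M against G1 (adjusted p = 0.361), neither of which passed.

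**Figure D3:**
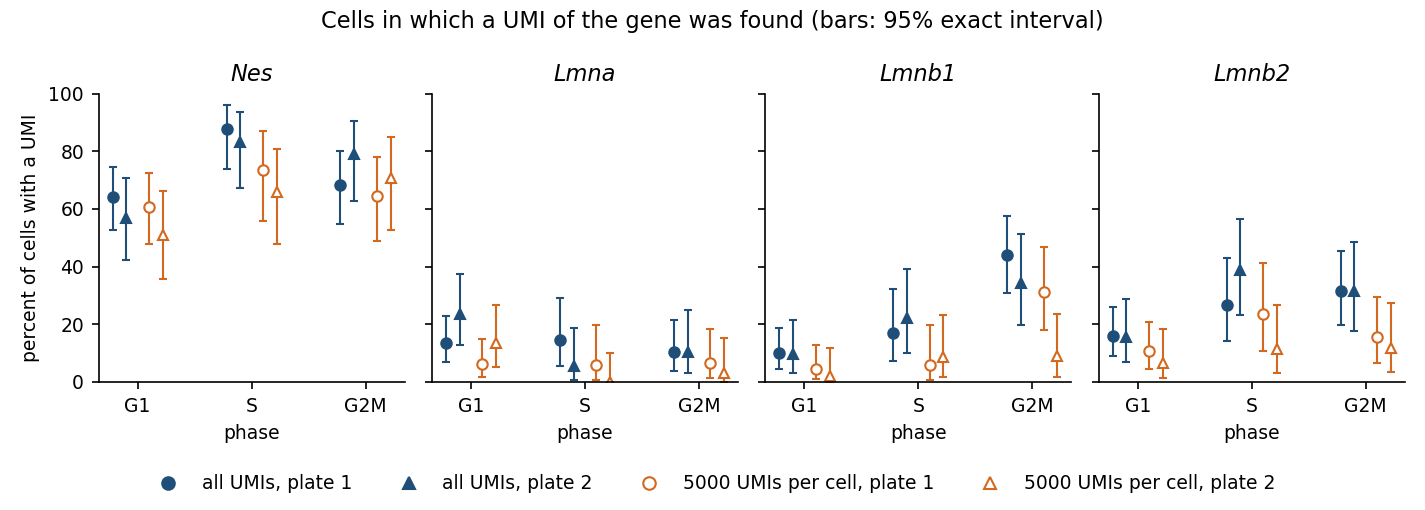
Percent of cells with a UMI of *Nes*, *Lmna*, *Lmnb1* or *Lmnb2* (y axis) by phase (x axis), for each plate, with all UMIs (filled) and with 5000 UMIs per cell (open). Bars are exact intervals of 95%, which cover counting error only. For *Lmnb1* the share was 9.88% and 9.8% in G1 and 43.9% and 34.2% in G2M, and thinning lowered the G2M shares to 31.1% and 8.82%.

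*Nes* was at 290.9 and 206.9 CPM in G1, 354.2 and 319.1 CPM in S and 288.9 and 218.2 CPM in G2M. Both S sums were above all G1 and G2M sums, and the G1 and G2M sums overlapped. *Nes* was 1.36-fold higher in S than in G1 (log2 0.44, SE 0.14, adjusted p = 0.0440 in edgeR). The call was lost without the block (0.322), in DESeq2 (0.652), among thinned cells (log2 0.40, adjusted p = 0.324), without G1 of plate 2 (log2 0.33, adjusted p = 0.382) and without S of plate 2 (log2 0.31, adjusted p = 0.417). Against S, *Nes* in G2M had a log2 fold change of −0.42 (SE 0.14, adjusted p = 0.113). That difference was called with the category as a term over 12 sums (0.0532), with at least 50 counts in every sum (0.0703), with library size as the only scaling (0.0796) and in limma voom (0.0984). Against G1, it had 0.02 (SE 0.14, adjusted p = 0.956), with a sign that turned under several alternatives. A *Nes* UMI was found in 64.2% and 56.9% of G1 cells, 87.8% and 83.3% of S cells and 68.4% and 78.9% of G2M cells. S cells were deeper than G1 cells, with medians of 10994 and 15301 against 8290 and 9825 UMIs, and at 5000 UMIs per cell the shares were 60.6% and 51.1% in G1 and 73.5% and 65.7% in S. The exact intervals of G1 and S overlapped on each plate after thinning. Marker sums moved between the same phases. From G1 to S the summed oligodendrocyte lineage markers went from 2954 and 3017 to 2308 and 2481 CPM. The astrocyte markers went from 1056 and 868 to 746 and 654 CPM, and the NSPC markers from 5846 and 6167 to 5172 and 4946 CPM. The sparse ependymal markers went from 24.7 and 22.5 to 11 and 10.3 CPM. They were led by *Foxj1*, which had 47 counts in all cells and was not called (adjusted p = 0.279 in edgeR). Their part in the difference of *Nes* was not tested.

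*Vim* was at 3054 and 3410 CPM in G1, 2805 and 3061 CPM in S and 2330 and 2970 CPM in G2M. On each plate G1 was the highest and G2M the lowest, and plate 2 was above plate 1 in each phase. *Vim* fell by 0.29 on the log2 scale (SE 0.07, 18.4% lower) from G1 to G2M, with an adjusted p of 0.00532 in edgeR. Among thinned cells the difference was −0.31 (adjusted p = 0.00284). The call was lost without the block (0.278), in DESeq2 (0.128), without G1 of plate 1 (log2 −0.23, adjusted p = 0.132) and without G2M of plate 1 (log2 −0.17, adjusted p = 0.360). S against G1 (log2 −0.14, SE 0.07, adjusted p = 0.248) and G2M against S (log2 −0.15, SE 0.07, adjusted p = 0.346) did not pass. G2M against S was called among thinned cells (log2 −0.26, adjusted p = 0.0636) and with at least 50 counts in every sum (log2 −0.20, adjusted p = 0.0915). The summed oligodendrocyte lineage markers, 2 of 7 in the table and nearly all *Olig1*, moved with it, from 2954 and 3017 CPM in G1 to 1660 and 1785 CPM in G2M, while *Sox10*, *Pdgfra* and *Mbp* were not in the table. The summed astrocyte markers, 5 of 6 in the table, were at 1056 and 868 CPM in G1 and 766 and 489 CPM in G2M, and the NSPC markers at 5846 and 6167 and at 5479 and 5256 CPM. Their part in the differences of *Vim* and *Lmnb1* was not tested.

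**Figure D4:**
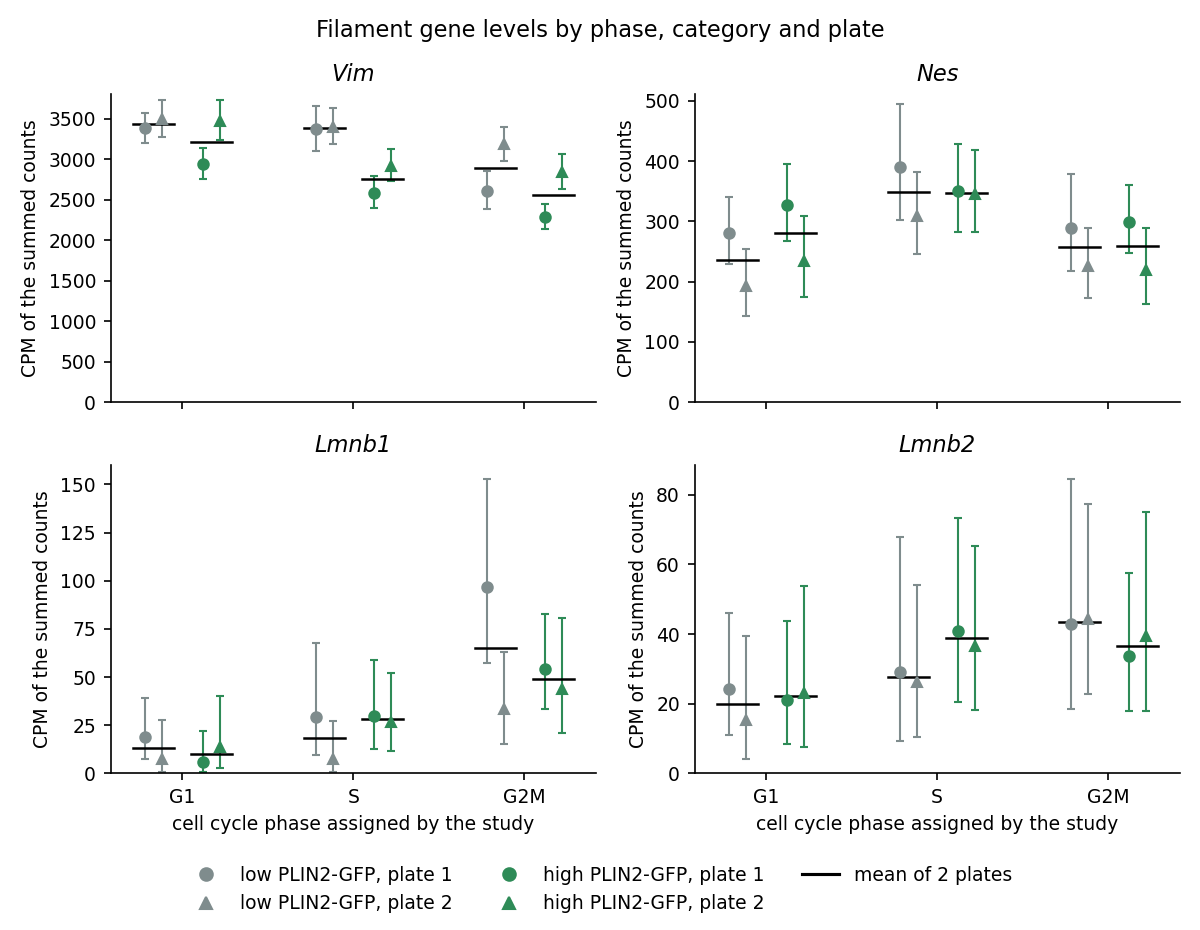
Level in CPM (y axis, from 0) of *Vim*, *Nes*, *Lmnb1* and *Lmnb2* by phase (x axis), with low and high PLIN2-GFP NSPCs of each plate as separate points, 95% Poisson intervals of the counts as bars, and the mean of the plates as a line. *Vim* lay lower in high cells in each phase on both plates, and *Lmnb1* was highest in G2M.

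The difference between the categories was not shown to change with the phase. In a test of the interaction over 12 sums, 0 of 4 members were called, at adjusted p of 0.986 each in edgeR, and 0 had an unadjusted p under 0.05. Among all 6163 genes tested, 0.0487% were called and 333 had an unadjusted p under 0.05. Each category gave the same order of *Lmnb1* means, with 9.93 ± 5.48 CPM in G1, 28.2 ± 2.26 CPM in S and 49 ± 7.36 CPM in G2M for high cells, and 13.3 ± 7.92, 18.3 ± 15.2 and 64.9 ± 44.8 CPM for low cells (SD, n = 2 plates). Low G2M cells of plate 1 reached 96.5 CPM, from 18 counts, against 33.2 CPM on plate 2.

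The authors grouped the cells into clusters 0 and 1 from the same counts, so values by cluster are a description with no test. Cluster 0 held 61 and 40 high but 31 and 23 low cells of plates 1 and 2, and cluster 1 held 23 and 13 high but 64 and 49 low cells. *Vim* was at 2398 and 2812 CPM in cluster 0 and at 3066 and 3422 CPM in cluster 1. Within cluster 0 it was lower in high than in low cells on both plates, with 2357 against 2697 CPM and 2722 against 3117 CPM. Within cluster 1 the plates went opposite ways, with 2857 against 3264 CPM on plate 1 and 3900 against 3340 CPM on plate 2, where 13 high cells made up the sum. *Nes* was at 263.9 ± 40.9 CPM in cluster 0 and 288.8 ± 35.8 CPM in cluster 1 (SD, n = 2 plates). *Lmnb2* was at 31.2 and 28.8 CPM in cluster 0 and 27.8 and 31.2 CPM in cluster 1, and *Lmnb1* at 35.5 and 24.2 CPM and 32.5 and 17.7 CPM, so the clusters overlapped for both.

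Genes that act on the filaments were taken from 5 lists. Of 11 kinases that phosphorylate filaments, 9 were tested between phases. Of these, 4 were called higher in S than in G1, 4 higher in G2M than in G1 and 3 higher in G2M than in S. Over all genes tested, 7.56%, 9.01% and 2.76% were higher in these comparisons. The kinases had median log2 fold changes of 0.40, 0.30 and 0.20, against −0.03, −0.01 and −0.0008 over all genes tested. DESeq2 called 1, 4 and 2 of them in these comparisons, and limma voom called 3, 4 and 2. *Aurka* in S against G1 (log2 1.91, adjusted p = 0.0744) was called without G2M of plate 2 (0.0944) and not without any other 1 of the 6 sums (0.102 to 0.424). *Aurka* in G2M against S (log2 2.08, adjusted p = 0.000480) was not called without S of plate 1 (log2 1.69, adjusted p = 0.101). *Cdk1*, *Aurka* and *Aurkb*, kinases that drive cells into and through mitosis, are in the Seurat list for G2M, so their differences follow in part from the phase call and are no test. *Cdk1* was 4.56-fold, *Aurka* 15.8-fold and *Aurkb* 9.73-fold higher in G2M than in G1. *Plk1*, a mitotic kinase that phosphorylates vimentin, is not in that list. Its difference is still not independent of the phase call, which was made from cycle genes of the same cells. *Plk1* was 20.2-fold higher in G2M than in G1 (log2 4.34, SE 0.29, adjusted p = 4.02e-12 in edgeR) and 6.62-fold higher than in S (log2 2.73, SE 0.24, adjusted p = 4.36e-09). *Plk1* was also 3.05-fold higher in S than in G1 (adjusted p = 0.0172), a call lost without G1 of plate 1 (log2 0.75, adjusted p = 0.511) or S of plate 1 (log2 1.45, adjusted p = 0.165), in DESeq2 (0.156) and in thinned cells (0.259). *Rock1* and *Rock2*, kinases of the actin pathway that also act on vimentin, had log2 fold changes of −0.16 and 0.15 in G2M against G1 and did not pass.

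Of 16 partners of the lamina, 15 were tested, and 4 were called higher in G2M than in G1, 2 higher in S than in G1 and 0 between G2M and S. Over all genes tested, 9.01% were higher in G2M than in G1, 7.56% higher in S than in G1, and 4.85% were called between G2M and S. The median log2 fold changes were 0.03, 0.21 and −0.05, near those of all genes for G2M. *Tmpo*, which encodes lamina-associated polypeptide 2, and *Lbr*, the lamin B receptor, were 2.93-fold and 3.7-fold higher in G2M than in G1. These were also the 2 partners called in S against G1. Both are in the Seurat list for G2M, so their differences follow in part from the phase call and are no test. *Sun2*, which links the lamina to the cytoskeleton, was 3.37-fold higher (adjusted p = 0.0217), and *Banf1*, a chromatin-binding partner of the lamina, was 1.19-fold higher (adjusted p = 0.0759). *Sun2* was not called without G1 of plate 2 (0.224), G2M of plate 1 (0.242) or G2M of plate 2 (0.127), nor by DESeq2 (0.527). *Banf1* was not called without G1 of plate 1 (0.267), G1 of plate 2 (0.266), G2M of plate 1 (0.155) or G2M of plate 2 (0.366), nor without the block (0.410), in thinned cells (0.129) or by DESeq2 (0.641). Between G2M and S, 4 of the 15 lamina partners tested had an unadjusted p under 0.05 in edgeR, as did 1039 of all 7650 genes tested. DESeq2 and limma voom called 0 of the partners there. Of 5 genes for processing of prelamin A, such as *Zmpste24*, which cleaves it, edgeR and limma voom called 0 in each comparison. None had an unadjusted p under 0.05 in edgeR, which called 2.14 to 16.4% of all genes tested. Over all genes tested, 918 of 8348 had such a p in high against low, and 1039 to 1815 of 7650 between phases. DESeq2 also called 0, but in high against low it gave no adjusted p even to *Nes*, which has more counts.

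Of 10 linkers and chaperones, 4 were tested, and 1 was called, lower in G2M than in G1, where 7.4% of all genes tested were lower. *Cryab*, a small heat shock protein that binds filaments, fell by 0.82 on the log2 scale from G1 to G2M (SE 0.29, adjusted p = 0.0634 in edgeR). That call was lost without G1 of plate 1 (log2 −0.48, adjusted p = 0.661), G2M of plate 1 (log2 −0.66, adjusted p = 0.411) or G2M of plate 2 (log2 −0.92, adjusted p = 0.155), without the block (0.139), in DESeq2 (0.858) and among cells with under 20% mitochondrial counts (log2 −0.73, adjusted p = 0.120). *Plec*, the plectin gene, had 16 counts and was not tested. Of 21 other cytoplasmic filament genes, 6 were in the table, with 4 to 84 counts, led by *Krt10*. The neurofilament genes *Nefl*, *Nefm* and *Nefh* and the desmin gene *Des* were not in the table. In high against low PLIN2-GFP NSPCs, edgeR and limma voom called 0 genes of these 5 lists, where 2.14% and 2.23% of all genes tested were called. For lists of this size, 0 calls is near that share. DESeq2 also called 0, but it gave no adjusted p there to *Nes*, *Lmna*, *Lmnb1* or *Lmnb2*. Its 0 is therefore no test for genes as sparse as these. In the same comparison, 1 of 10 kinases and 1 of 3 other filament genes had an unadjusted p under 0.05 in edgeR. Among the rest, 0 of 15 lamina partners, 0 of 5 prelamin genes and 0 of 4 linkers and chaperones had one. Over all genes tested, 918 of 8348 had one, and counts in lists this small are no result about their genes.

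The genes with the most similar pattern to each tested member were found by Pearson's r of log2 CPM over the 12 sums of plate, category and phase, among 1200 or 1201 genes with at least 500 counts. These sums share plates, so the values are a description. They were also divided by the phase call, so genes that follow the cell cycle correlate in part through that division. The similar genes were not looked up in the Seurat lists of cycle genes, so their r is no test of a link to the cell cycle. For *Lmnb1* a sum held as few as 2 counts, as in high G1 cells of plate 1. For *Lmnb1* they were *Tpx2*, a spindle assembly factor (r = 0.85), *Hnrnpa0* (0.85) and *Tuba1b* (0.85). For *Lmnb2* they were *Ptbp1* (0.86), *Smc4*, a condensin subunit (0.85), and *Mki67*, a marker of proliferating cells (0.85). For *Vim* they were *Pcdhga12* (0.90), *Cdc42se2* (0.90) and *Ctnnb1*, the beta-catenin gene (0.89), and for *Nes* they were *Pgp* (0.82), *Hspa8* (0.80) and *P4hb* (0.78). Between *Vim* and *Nes* r was −0.29.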

How the data were processed

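The authors assigned SORT-seq reads to GRCm38 with Salmon's alevin, per the labels, and deposited estimated counts (expected counts, 87.1% of values above 0 whole within 1e-06) per gene and cell, without normalization. Their deposited per-cell table gives the plate, category, phase and cluster of each cell, with its summed estimated count, its count of detected genes and the percent of its counts that are mitochondrial. The release of the gene annotation is not given in the sources used here. The study kept cells under 20% mitochondrial counts after doublet detection, while 11 of the cells in the table are at or above it. Count columns carry no cell names, so each was joined to the cell with equal total and number of genes.

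Counts were summed per plate and group, rounded, and tested in edgeR 4.0.16 (R 4.3.3) by the quasi-likelihood test with TMM factors, filterByExpr and a term for the plate (the block), with Benjamini-Hochberg adjustment over all genes tested and calls under 0.1. The 6 plate and phase sums held 460368 to 767400 UMIs, and the 4 plate and category sums 778022 to 1029023. Standard errors were taken as the size of the log2 fold change divided by the root of F. The plate pairs the sums, since both categories came from each plate, and deviations of sums of 1 plate correlated at 0.300 between categories and 0.195 to 0.224 between phases. The 2 plates hold cells of 1 line, so p-values do not measure a spread between animals or lines. With the block they set a difference against how it varies from plate to plate once the plate levels are taken out, which may be technical. In edgeR that spread is estimated with information shared over the genes tested, so it is not the spread of 1 gene alone. Intervals are exact (Clopper-Pearson for shares, Poisson for counts, 95%) and cover counting error only. Alternatives used DESeq2 1.42.0, limma 3.58.1, other scalings and filters, thinned cells, mitochondrial limits and left-out sums or plates. The fits were also run on simulated sums with a common spread for all genes and no difference between plates. Those sums do not test the block, on which several calls depend. Lists of cycle genes are those of Seurat 5.3.0. Gene coordinates are from GENCODE M21.

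The members and lists were chosen with earlier results of these data known. All 7 members are named, as are called genes of each list, at most 4 per comparison by p, and the 3 genes most similar to each tested member. *Rock1*, *Rock2* and the listed genes given only by count or as absent were named after their values were seen.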

Additional observations from a re-analysis of the deposited data

How the results depend on the processing

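In high against low PLIN2-GFP NSPCs, 1 member was called, and 0 were called without the replicate block, with DESeq2, among cells thinned to 5000 UMIs and among cells with under 10% mitochondrial counts, nor (range 0 to 0) when 1 sum was left out. For S against G1, 1 was called, and 0 without the block, with DESeq2 and among thinned cells (0 to 1 with 1 sum left out). For G2M against G1, 2 were called, and 1 without the block, with DESeq2, among thinned cells and with at least 50 counts in every sum (1 to 2 with 1 sum left out), where the last 2 settings left *Lmnb1* untested. For G2M against S, 1 was called, 0 without the block and with DESeq2, and 2 with library size only, with at least 50 counts in every sum and with the category as a term over 12 sums (0 to 1 with 1 sum left out). *Nes* was gained with library size only and with the category as a term, and *Vim* and *Nes* with at least 50 counts, where *Lmnb1* was not tested. The 1 called member was *Vim* in thinned cells, where *Lmnb1* was not tested, and *Nes* in limma voom. The interaction called 0 members in every setting run. The share of all genes tested that was called moved as well. For high against low, 2.14% became 0.012% without the block, 0.132% with DESeq2, 1.17% in thinned cells, 0.0555% under 10% mitochondrial counts, 1.11% with no filter, 7.41% with at least 50 counts and 0.067 to 0.246% with 1 sum left out. For S against G1, 12.7% became 5.8% without the block, 2.71% with DESeq2, 8.6% in thinned cells, 6.39% with no filter, 22.3% with at least 50 counts and 5.85 to 12.9% with 1 sum left out. In the same order, G2M against G1 went from 16.4% to 8.54%, 4.14%, 13%, 8.5%, 34.2% and 8.57 to 15.4%, and G2M against S from 4.85% to 2.41%, 1.07%, 3.58%, 2.71%, 8.34% and 1.91 to 5.35%. The interaction had 3 calls, 0 without the block, 1 in thinned cells and 6 with at least 50 counts over all sums. The signs that turned belonged to differences that did not pass. *Nes* in high against low PLIN2-GFP NSPCs, at 0.11, became −0.25 in thinned cells and −0.049 under 10% mitochondrial counts, and ranged from −0.043 to 0.30 with 1 sum left out. *Lmnb1* there, at 0.05, became −0.11 with phase as a term, and −0.39 on plate 1 alone (0.78 on plate 2), and ranged from −0.46 to 0.86 with 1 sum left out. *Nes* in G2M against G1, at 0.02, became −0.091 in thinned cells, −0.0030 with the category as a term and −0.01 on plate 1 alone, and ranged from −0.068 to 0.17 with 1 sum left out. The cause of these changes was not tested. With 1 plate alone, 1 sum per group remains and no test was made.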
